A study of Mus musculus with 12 samples.

Results

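The clustered histone genes are 51 of the 18467 gene rows of the count table. They were taken by symbol alone: H1f0 to H1f5, and every symbol made of H2ac, H2bc, H3c or H4c and a number. The rule gave 6 linker histone H1 genes, 10 H2A, 13 H2B, 12 H3 and 10 H4 genes. In the RefSeq annotation of GRCm38.p6, 41 of them lie on chromosome 13, 9 on chromosome 3, and H1f0 alone on chromosome 15. A further 7 clustered histone rows carry older symbols (Hist1h2ao, Hist1h2ap, Hist1h2bp, Hist1h2bq, Hist1h2br, Hist1h4m and Hist1h4n), fall outside the rule, and are given separately.

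RNA was sequenced from macrophages sorted from the femur and tibia marrow of female Albino B6 mice, with 3 libraries from different mice in each of 4 groups. General macrophages were sorted as CD11b+F4/80+ cells and niche macrophages as VCAM1+CD163+CCR3+ cells, a sort that the series relates to the erythroblastic niche, where macrophages surrounded by maturing red cells take part in their production. Each population came from normal marrow or from marrow with E0771 bone metastases; E0771 is a breast cancer line of the mouse, and it was injected into the caudal artery at an age of 8 weeks. The normal mice are described as healthy controls, whether they received a sham injection is not given in the sources used here, and each metastatic group rests on 1 tumour line. The 4 groups share the red cell lysis, the live-cell sort and the removal of ribosomal RNA before library preparation.

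H2A, H2B, H3 and H4 proteins form the core of the nucleosome, around which DNA is wrapped, and H1 binds the linker DNA between nucleosomes. Most clustered histone genes are transcribed when DNA is replicated. Their mRNAs are unusual in lacking a poly(A) tail and end in a stem-loop that is bound by SLBP, so they are seen in ribosome-depleted total RNA more fully than after selection for poly(A). H1f0 differs from the rest of the set: it encodes H1.0, a linker histone typical of cells that have left the cell cycle, and its mRNA is polyadenylated. Mature macrophages divide little, while many marrow progenitors are cycling.

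The stem-loop is shown first because it is the feature that sets these mRNAs apart. The letters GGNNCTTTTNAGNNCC (N is any base, sense strand, 16 bases) were found in the annotated GENCODE M21 transcripts of 35 of the 51 members (68.6%) and of 72 of 21877 protein-coding genes (0.329%). There were 6 forms, printed 5′ to 3′ as DNA with the 4 loop bases in capitals.
Form in 21 genes of H1, H2A, H2B and H3: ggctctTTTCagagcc
Form in H2bc12, H2bc3, H3c3, H3c6 and H3c7: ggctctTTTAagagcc
Form in H2ac20: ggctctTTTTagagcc
Form in H4c3, H4c4, H4c6 and H4c8: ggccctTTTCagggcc
Form in H4c14 and H4c9: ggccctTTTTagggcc
Form in H4c11 and H4c2: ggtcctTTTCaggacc
The 8 H4 genes with a match carried stems with letters not seen in the other 4 classes. H1f0, H1f1 and H1f5 had no match, and neither did H2bc13. Several annotated transcripts end at or near the stop codon, so a missing match says only that the letters are not in that transcript.

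Promoter windows of 300 bases, 250 before and 50 after the start, were given by RefSeq (GRCm38.p6) for 46 of the 51 members. An octamer (ATTTGCAT, either strand), the letters known from H2B promoters, was found in 6 of 11 H2B windows (54.5%), 5 of 10 H2A windows and 0 of the H1, H3 and H4 windows, against 1.97% of the 27025 genes with a window. A CCAAT box (CCAAT, either strand) was in all 10 H2A, 11 H2B and 10 H3 windows, in 5 of 6 H1 windows (83.3%) and in 3 of 9 H4 windows (33.3%), against 41.1% of all genes. A TATA box (TATAAA, either strand) was in 80.0% of H2A, 66.7% of H1, 66.7% of H4, 45.5% of H2B and 40.0% of H3 windows, against 15.7% of all genes. The first stretch below lies between the starts of the divergent pair H2ac8 and H2bc8, and the second lies before the start of H4c4, the member with the highest mean level. Both are on the plus strand, with matches to any of the 3 motifs in capitals.
H2ac8 and H2bc8, chr13:23571221-23571399: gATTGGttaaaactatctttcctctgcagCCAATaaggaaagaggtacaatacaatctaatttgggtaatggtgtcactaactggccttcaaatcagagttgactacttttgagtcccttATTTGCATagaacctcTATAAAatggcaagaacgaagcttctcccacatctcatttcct
H4c4, chr13:23581318-23581567: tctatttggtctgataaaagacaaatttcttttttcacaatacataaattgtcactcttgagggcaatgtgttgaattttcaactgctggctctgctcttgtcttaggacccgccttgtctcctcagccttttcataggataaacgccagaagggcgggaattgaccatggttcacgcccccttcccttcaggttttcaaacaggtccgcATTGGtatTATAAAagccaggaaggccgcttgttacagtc
The shared stretch held 1 octamer, 2 CCAAT boxes and 1 TATA box, and the H4c4 stretch held 1 CCAAT box and 1 TATA box.

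Coding sequences within the H2A, H2B, H3 and H4 classes were nearly the same. The 6 H1 genes, with coding lengths from 582 to 669 bases, had no pair of equal length. Among pairs of equal coding length, median identity was 96.8% in H2A, 97.2% in H2B, 97.6% in H3 and 93.8% in H4. H2ac18 and H2ac19 were identical. Cut into 50-base windows, a median of 89.1% of the windows of an H2A gene were also found in another gene, as were 80.2% in H2B, 85.4% in H3, 69.8% in H4 and 10.99% in H1. H1f0, H1f1, H1f5 and H2bc21 shared no window. Counts of single copies other than these are uncertain, because the authors' rule for reads that match several genes is not given in the sources used here. For this reason the class sums stand beside the single genes.

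Library totals were between 13687945 and 30332417 counts, and the 51 members together took between 0.104% and 0.456% of them. Levels are given as CPM, counts scaled to a common library size with edgeR's TMM factors, and 3 counts, the floor used for a value at or near 0, equal 0.109 to 0.243 CPM. Niche normal library A had the smallest total, and only 20 members reached 10 counts in it, against 31 to 48 in the other 11 libraries. In that library 33.1% of all tested genes had 3 or fewer counts, the highest share of the 12, and 2 of 10 H4 members and 4 of 12 H3 members reached 10 counts. The antigens of the niche sort followed the labels: Vcam1, Ccr3 and Cd163 were called higher in the niche sort in both marrow states. Those of the general sort were mixed. Adgre1 went against the labels, at 103 to 145 CPM in general normal and 343 to 589 CPM in niche normal libraries, where it was called higher. In metastatic marrow it was at 63.96 to 118 CPM in general and 144 to 262 CPM in niche libraries and was not called. Itgam was at 628 to 852 CPM in general normal and 328 to 547 CPM in niche normal libraries. It overlapped in metastatic marrow and was called in neither state. The marker lists moved too, in both states. A list of 8 macrophage markers summed to 1267 to 1899 CPM in niche normal and 572 to 1157 CPM in niche metastatic libraries, against 264 to 319 and 161 to 291 CPM in the general sort, of which 3 were called in normal and 2 in metastatic marrow. A list of 7 neutrophil genes summed to 17968 to 19383 and 12686 to 21114 CPM in general normal and metastatic libraries and to 8525 to 10109 and 9566 to 9978 CPM in niche ones, with 5 and 3 genes called lower. The 11 erythroid markers summed to 788 to 1229 and 635 to 1617 CPM in niche and to 16.3 to 112.7 and 73.4 to 110.4 CPM in general libraries (3 and 2 of 9 tested called higher); Klf1 and Epor were at 3 or fewer counts in every general library, and Klf1 in every niche metastatic one. Of 7 B cell markers, 6 of them in the table, which summed to 646 to 1254 and 543 to 1593 CPM in niche and 129 to 186 and 72.8 to 89.8 CPM in general libraries, Ighm was called higher in both states and Cd79a and Igll1 were at 3 or fewer counts in every general library. The 3 epithelial markers in the table, read for tumour cells, summed to 1.84 to 15.2 CPM in general normal, 2.98 to 10.6 in general metastatic, 0.151 to 26.3 in niche normal and 3.54 to 33.8 in niche metastatic libraries, where Krt8 was at 3 or fewer counts in all 12. The share of counts taken by U3 small RNA genes was 17.6% to 24.2% in general and 6.65% to 14.5% in niche libraries, without overlap. Genes with at least 10 counts numbered 9491 to 10608 in general normal, 10385 to 12658 in general metastatic, 7689 to 9005 in niche normal and 9585 to 11606 in niche metastatic libraries. With the U3 genes left out, the sums of the 51 members and of each class kept every separation and overlap between groups given below. Of the wider sums with rows under older symbols, that of H2A in normal marrow did not, as its overlap was lost. The part of these cells, and of the number of genes detected, in the histone values was not tested, and in bulk RNA fewer cells of a type and less RNA per cell cannot be told apart.

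**Figure D1:**
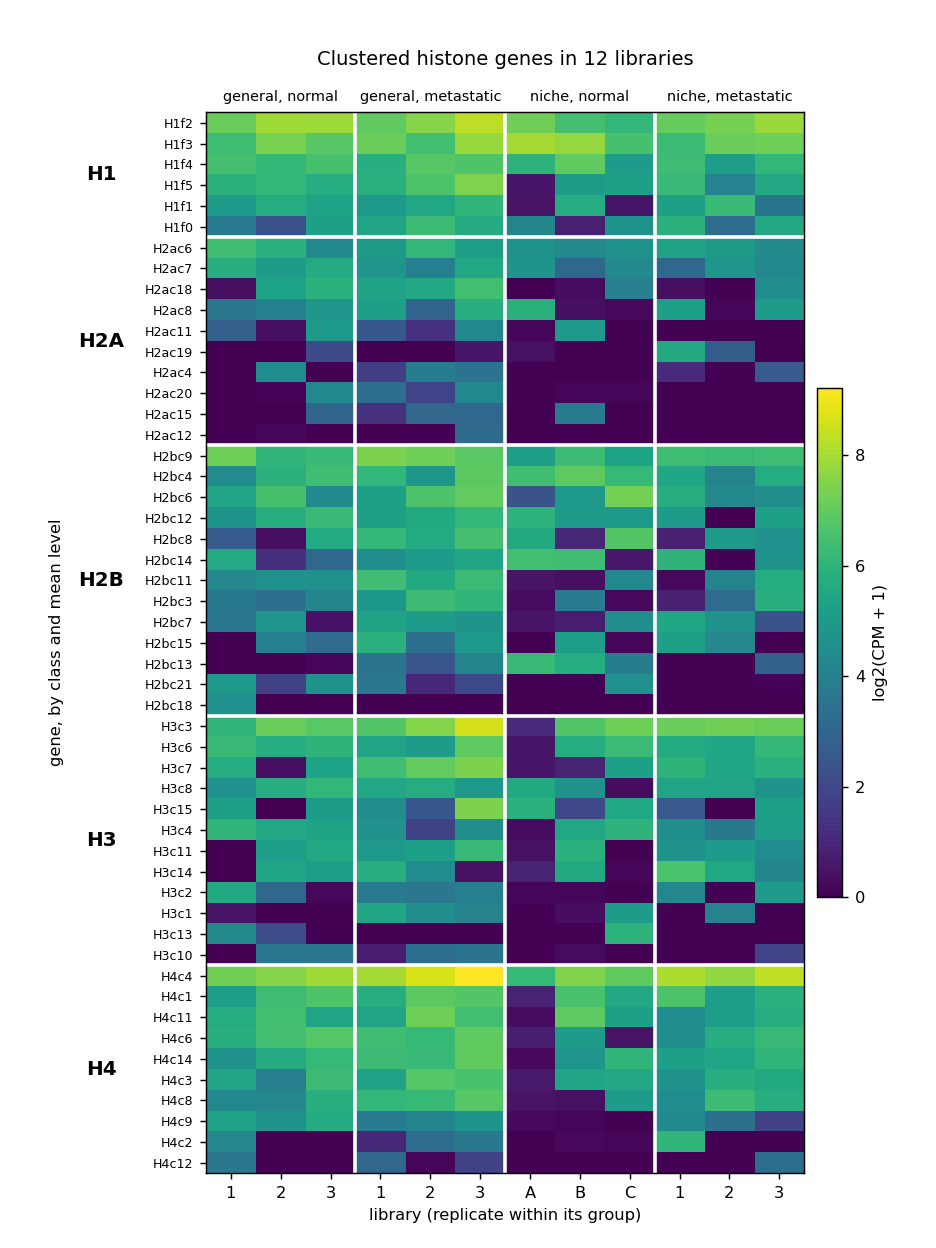
Level of each of the 51 clustered histone genes, as log2(CPM + 1), in the 12 libraries; rows are genes ordered by class and mean level, columns are libraries by group. H4c4 is bright in all 12 libraries, while 29 genes have a library at 3 or fewer counts and another at 100 or more.

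Single histone genes were present in some libraries and nearly absent in others. Of the 51 members, 29 (56.9%) had a library with 3 or fewer counts and another with 100 or more, and 22 were above 3 counts in every library. Among all 12882 tested genes, 49.8% showed both extremes, so the members were close to the background in this respect. The 22 members above 3 counts throughout, whose counts could still vary widely (H1f5 from 6 to 4702), were all 6 H1 genes, 5 of 13 H2B, 5 of 10 H4, 4 of 12 H3 and 2 of 10 H2A genes (H2ac6 and H2ac7). Of the 9 members with under 50% of their windows in other genes, 7 were above 3 counts throughout, against 15 of the 42 members with more. These 9 include all 6 H1 genes, and their median mean level was 59.2 CPM, against 28.3 CPM for the 42. The part of level and class in this contrast was not tested. H2bc21, which shared no window with another gene, had 3 or fewer counts in 5 libraries.

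**Figure D2:**
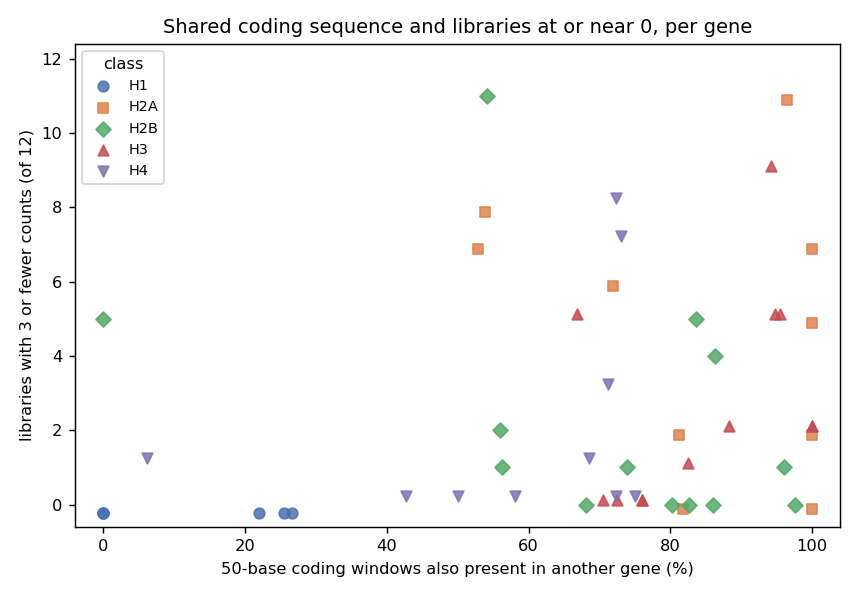
Each point is 1 gene; the x axis is the share of its 50-base coding windows also present in another gene (%), and the y axis is the number of the 12 libraries in which it had 3 or fewer counts. Points of a class are shifted slightly up or down so that they can be told apart; the 6 H1 genes all sit at 0 libraries.

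Divergent H2A and H2B neighbours, which share the stretch between their starts, were not always detected together. There were 7 such pairs with starts 164 to 249 bases apart, which makes 84 combinations of a pair and a library. Both genes had at least 10 counts in 45 combinations, H2B alone in 23, H2A alone in 4, and neither in 12. H2ac6 and H2bc4 were both detected in all 12 libraries, and H2ac8 and H2bc8, whose shared stretch is printed above, in 8 of 12. H2ac12 and H2bc12 were detected together in 1 library, and H2bc12 alone in 10.

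Summed over all 51 members, the level was 1771, 2038 and 2353 CPM in general normal replicates 1 to 3 and 2326, 2842 and 4274 CPM in general metastatic replicates 1 to 3. It was 1158, 1852 and 1607 CPM in niche normal libraries A to C and 1981, 1602 and 2113 CPM in niche metastatic replicates 1 to 3. General metastatic replicate 3 had the highest sum. Niche and general libraries did not overlap in metastatic marrow, where the niche mean was 1.66 times lower (1898 ± 265 against 3147 ± 1009, SD, n = 3 each). With the library total as the only scaling these ranges did overlap. In normal marrow the niche mean was 1.33 times lower (1539 ± 352 against 2054 ± 291, SD, n = 3 each) and the ranges overlapped, but they did not under RLE scaling or without general normal replicate 1, general metastatic replicate 3 or niche normal library B. General macrophages had a mean 1.53 times higher in metastatic than in normal marrow, and niche macrophages a mean 1.23 times higher, with overlapping ranges in both. The general ranges separated without general metastatic replicate 1 or general normal replicate 3, and the niche ranges without niche metastatic replicate 2. No p-value is given for a sum over members.

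**Figure D3:**
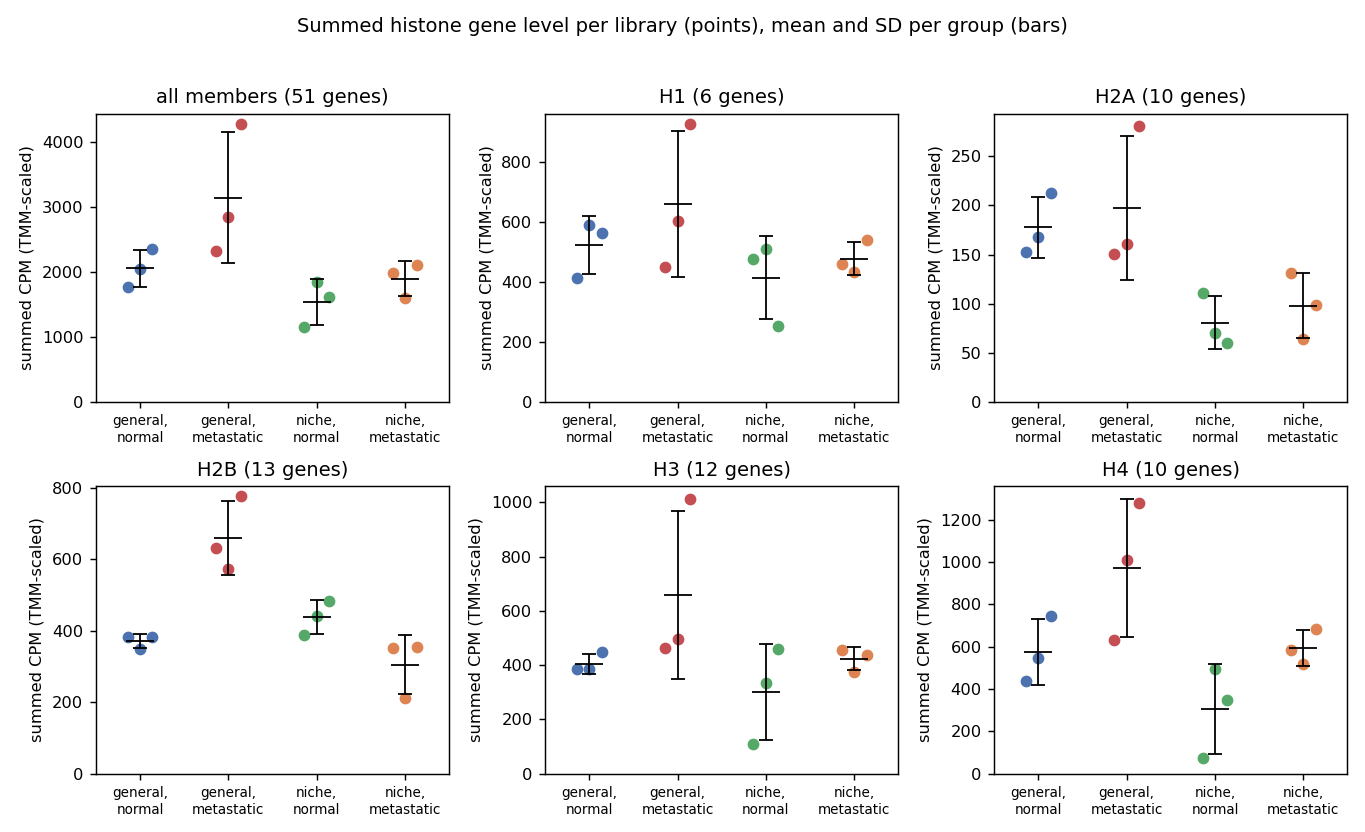
Summed level (CPM after TMM scaling) of all 51 members and of each histone class, with 1 point per library; the bars give the mean and SD of the 3 libraries of a group. H2A points of the niche groups lie below all general points, and the H2B panel shows the highest values in general metastatic libraries, 574 to 776 CPM.

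Per kilobase of coding sequence, the general normal libraries held a mean of 1868 ± 504 CPM of H4, 982 ± 51.1 of H2B, 978 ± 85.4 of H3, 808 ± 148 of H1 and 456 ± 80.8 of H2A (SD, n = 3 each). H4 was the highest class and H2A the lowest on this scale in the means of general normal, general metastatic and niche metastatic libraries. In niche normal libraries the H4 mean was 993 ± 692 and the H2B mean 1160 ± 127, and the wide H4 spread took in the H2B mean. These values leave out the rows under older symbols. With those rows, summed CPM not scaled by length was 805 ± 89.3 in H4 and 461 ± 67.4 in H2B in niche normal libraries. Without them it was 307 in H4 and 438 in H2B.

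The H1 genes, which encode linker histones, had more than 3 counts in all libraries, the lowest being 5 and 9 counts of H1f1 and 6 of H1f5 in niche normal libraries. H1f2 and H1f3 led the class in 8 and 4 libraries, and held a median of 32.1% and 27.1% of its summed CPM. H1f2 was at 138, 236 and 234 CPM in general normal and 147, 88.7 and 67.3 CPM in niche normal libraries. The highest niche value lay inside the general range; the log2 difference was -1.005 ± 0.40 (SE), which edgeR did not call (adjusted p = 0.223). H1f3 was at 249, 214 and 91.5 CPM in niche normal against 79.7, 164 and 111 CPM in general normal libraries, the opposite order of means to H1f2, also with overlap (adjusted p = 0.461 by edgeR). H1f4, the third by level, ranged from 32.0 to 123 CPM over the 12 libraries. The summed H1 level was 523 ± 95.5 CPM in general normal, 659 ± 243 in general metastatic, 413 ± 139 in niche normal and 477 ± 55.1 in niche metastatic libraries (SD, n = 3 each). Ranges overlapped in all 4 comparisons. They separated between populations in normal marrow without general normal replicate 1, and without general metastatic replicate 1 in both comparisons that use the general metastatic group. Without general metastatic replicate 3, the log2 ratio of the general metastatic to the general normal mean went from 0.33 to -0.00041.

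H1f0, the linker histone of non-cycling cells, was at 12.98, 3.97 and 36.6 CPM in general normal and 42.7, 78.9 and 49.6 CPM in general metastatic libraries. All 3 metastatic values were higher than all 3 normal ones, but the log2 difference of 1.68 ± 1.16 (SE) was not called by edgeR (adjusted p = 1). In niche macrophages it was at 17.6, 0.746 and 25.7 CPM in normal and 59.9, 8.61 and 46.7 CPM in metastatic marrow, with overlap.

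The H2A members summed to less in the niche sort in both marrow states. Its summed level was 152, 168 and 213 CPM in general normal, 150.3, 160.5 and 281 CPM in general metastatic, 111, 69.9 and 60.1 CPM in niche normal and 131, 64.3 and 98.6 CPM in niche metastatic libraries. Niche libraries lay below general ones without overlap in both states, by 2.21 times in normal and 2.01 times in metastatic marrow. The metastatic ranges overlapped when only the library total was used for scaling. Adding Hist1h2ao and Hist1h2ap brought niche normal library A to 183.81 CPM, just above the lowest general value of 183.79 CPM. The normal ranges then touched. This overlap was present in 3 of 16 settings: TMM, RLE scaling, and without niche metastatic replicate 3. It was absent under library totals alone, with U3 small RNA genes excluded and with any other library left out.

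H2ac6 and H2ac7, the H2A genes above 3 counts in every library, had the highest mean levels of the class. H2ac6 was at 82.2, 57.8 and 18.9 CPM in general normal and between 19.04 and 25.5 CPM in niche normal libraries, with overlap. H2ac7 was at 52.2, 32.6 and 49.3 CPM in general normal and 26.2, 7.60 and 19.1 CPM in niche normal libraries, without overlap, and the log2 difference of -1.34 ± 1.00 (SE) was not called by edgeR (adjusted p = 0.511). H2ac18, whose coding sequence is that of H2ac19, was at 38.5, 45.96 and 84.4 CPM in general metastatic and 0.303, 0.0437 and 21.9 CPM in niche metastatic libraries. H2ac19 itself was at 0, 0 and 0.476 CPM in general metastatic and 47.6, 5.64 and 0 CPM in niche metastatic libraries. Summed, the 2 identical copies were at 38.5, 45.96 and 84.9 CPM against 47.9, 5.68 and 21.9 CPM, so the groups overlapped. H2ac11, H2ac12, H2ac15 and H2ac20 had 0 or 1 count in all 3 niche metastatic libraries. H2ac20 had 246, 58 and 509 counts in general metastatic libraries and 0, 0 and 1 in niche metastatic ones, at least 76.8 times lower against a floor of 3 counts per library. H2ac11 had 132, 33 and 512 counts against 1, 1 and 1, and H2ac15 had 41, 158 and 203 counts against 0, 0 and 0. These were the members with the smallest unadjusted p-values of that comparison (0.0177, 0.0228 and 0.0277), and edgeR called none of them (adjusted p = 0.487, 0.523 and 0.523).

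H2B showed opposite orders in the 2 marrow states. Its summed level was 382, 349 and 382 CPM in general normal, 631, 574 and 776 CPM in general metastatic, 388, 443 and 484 CPM in niche normal and 351, 211 and 355 CPM in niche metastatic libraries. General metastatic libraries were above general normal ones by 1.78 times, and niche metastatic libraries were below general metastatic ones by 2.16 times. Neither pair overlapped under any of the scalings, any left-out library or the other sets of rows tried. Niche normal libraries were above general normal ones by 1.18 times, and niche metastatic ones below niche normal ones by 1.43 times. Neither pair overlapped, but both separations were lost when H2bc13 was left out or when only the library total was used for scaling. They were also lost when Hist1h2bp, Hist1h2bq and Hist1h2br were added, and the first without general metastatic replicate 3. With these 3 rows added the order of means stayed, at 1.13 times in the first pair and 0.779 times in the second.

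H2bc13 (chr13:21715711-21716183, minus strand, GRCm38.p6, a single coding exon) had 0, 0 and 2 counts in general normal and 293, 101 and 459 in general metastatic libraries. In niche macrophages the order was turned: 891, 1022 and 273 counts in normal and 1, 0 and 166 in metastatic libraries. Groups did not overlap in either population. Against the floor, the niche normal mean of 45.6 ± 29.6 CPM (SD, n = 3) was at least 256 times higher than general normal, and the general metastatic mean of 10.7 ± 6.11 CPM (SD, n = 3) at least 60.0 times higher. By edgeR the adjusted p was 0.0560 between the populations in normal marrow and 0.944 between the states in general macrophages, so neither was called. Between the populations in normal marrow it was called by DESeq2, by limma-voom, with no filter on low counts, and without any 1 of the niche metastatic libraries or niche normal library C. As 83.6% of its windows occur in other genes, counts of this copy are uncertain. Among the more abundant H2B genes, H2bc9 was at 167, 145 and 115 CPM in general metastatic and 81.6, 76.0 and 80.1 CPM in niche metastatic libraries, without overlap. H2bc4 was at 83.2, 119 and 71.8 CPM in niche normal and 42.2, 16.3 and 51.7 CPM in niche metastatic libraries, again without overlap. Neither difference was called by edgeR (adjusted p = 0.667 and 0.405). H2bc6, a further abundant copy, was between 4.14 and 155 CPM in the niche normal group alone.

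H3 differed less clearly. Its summed level was 384.2, 384.3 and 447 CPM in general normal, 463, 497 and 1013 CPM in general metastatic, 109, 334 and 459 CPM in niche normal and 456, 376 and 439 CPM in niche metastatic libraries. General metastatic libraries lay above both general normal and niche metastatic ones without overlap, but under RLE scaling or library totals alone both pairs overlapped. Without general metastatic replicate 3, the log2 ratio of metastatic to normal in general macrophages went from 0.70 to 0.23, and that of niche to general in metastatic marrow from -0.63 to -0.19. H3c3 led the class in 10 of 12 libraries. It was at 137, 147 and 139.7 CPM in niche metastatic libraries and at 1.22, 104 and 144 CPM in niche normal ones, where library A was the low value. H3c7 was at 41.6 to 62.2 CPM in niche metastatic against 0.487 to 36.0 CPM in niche normal libraries, and at 83.1 to 169 against 0.297 to 50.8 CPM in general ones. It was higher in metastatic marrow without overlap in both populations, yet not called by edgeR in either (log2 difference 2.06 ± 1.28 and 2.11 ± 1.29, SE; adjusted p = 1 and 0.493). H3c6 was at 74.8, 51.0 and 63.0 CPM in general normal and 0.487, 50.5 and 77.4 CPM in niche normal libraries, with overlap.

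H3c13 and H3c2 were present in some libraries and at or near 0 in others. H3c13 had 297, 59 and 0 counts in general normal, 1215 counts in niche normal library C and 0 in the other 8 libraries. H3c2 had 692, 129 and 3 counts in general normal, 359, 255 and 398 in general metastatic, 1, 2 and 0 in niche normal, and 358, 1 and 893 in niche metastatic libraries. Both were among the members with the smallest unadjusted p-values, and neither was called by edgeR (smallest adjusted p = 0.381 and 0.133).

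H4 was led by H4c4 (chr13:23581568-23581969, plus strand, GRCm38.p6, a single coding exon), the top H4 gene in all 12 libraries, with a median of 39.5% of the class. It was at 146, 185 and 238 CPM in general normal and 250.2, 398 and 593 CPM in general metastatic libraries. In niche macrophages it was at 71.5, 178 and 123 CPM in normal and 273, 209 and 322 CPM in metastatic marrow. Metastatic libraries were higher than normal ones without overlap in both populations. The log2 differences were 1.12 ± 0.36 (SE) in general and 1.11 ± 0.36 (SE) in niche macrophages, with unadjusted p of 0.00597 and 0.00644 from edgeR. Over all genes neither was called (adjusted p = 0.944 and 0.381), and the difference between the 2 effects was -0.01 ± 0.51 (SE; unadjusted p = 0.981). The log2 difference of niche from general macrophages was -0.62 ± 0.36 (SE) in normal and -0.63 ± 0.36 (SE) in metastatic marrow, also not called by edgeR (adjusted p = 0.355 and 0.717).

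H4c9 (chr13:22040960-22041362, minus strand, GRCm38.p6, a single coding exon) was the single member called by edgeR in any comparison. It had 561, 425 and 997 counts in general normal libraries and 2, 2 and 1 in niche normal ones. The general mean of 37.8 ± 12.3 CPM (SD, n = 3) was at least 209 times the floor of the niche libraries, and edgeR's adjusted p was 0.0137. In metastatic marrow it had 346, 395 and 710 counts in general and 400, 219 and 67 in niche libraries, so the niche level was not near 0 there. H4c9 shares 71.2% of its windows with other genes. The call was lost without general normal replicate 3 (adjusted p = 0.0590) and when only the 6 libraries of the comparison were fitted (adjusted p = 0.0726).

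**Figure D4:**
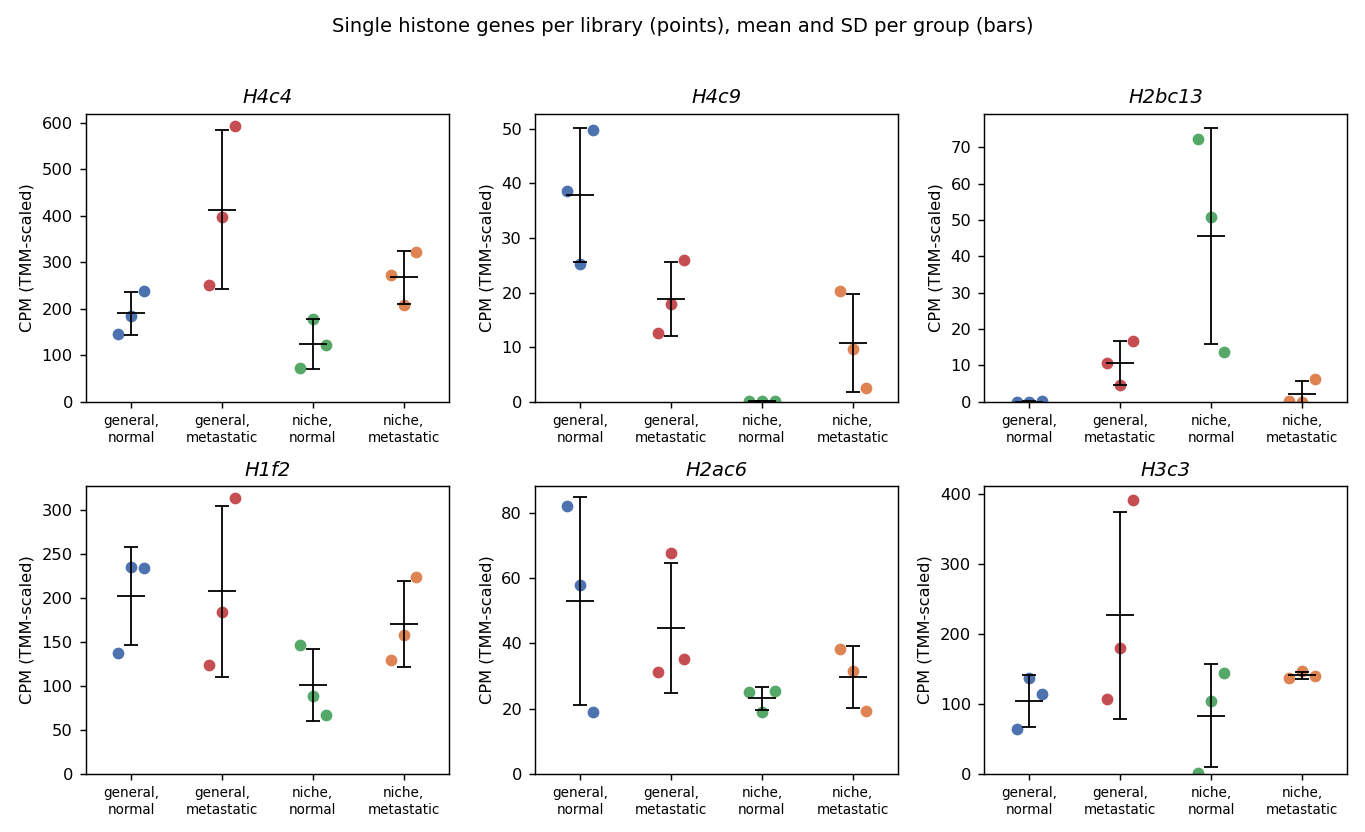
Level (CPM after TMM scaling) of 6 single histone genes, with 1 point per library and the mean and SD of the 3 libraries of a group. H4c4 is higher in metastatic than in normal libraries in both populations, H4c9 is near 0 in the 3 niche normal libraries, and H2bc13 is near 0 in general normal libraries.

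The summed level of the 10 H4 members was 439, 547 and 746 CPM in general normal, 632, 1009 and 1277 CPM in general metastatic, 74.7, 496 and 349.6 CPM in niche normal and 584, 517 and 682 CPM in niche metastatic libraries. H4c1 and H4c11, the next members by level, were at 0.893 and 0.243 CPM in niche normal library A and between 21.2 and 144 CPM in the other 11 libraries. Library A held the low value of the sum as well, and the SD of the niche normal group was 69.7% of its mean. Niche metastatic libraries lay above niche normal ones without overlap, with a log2 ratio of means of 0.95 that was 0.48 without library A.

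Of the rows under older symbols, 2 are H4 genes, and they changed this picture. Hist1h4m (chr13:21811746-21812147, GENCODE M21) was at 392 to 981 CPM, in each library above H4c4, which has the same coding length, and Hist1h4n (chr13:21831767-21832196) at 11.4 to 609 CPM. All their 50-base coding windows occur in other genes. Across libraries the 7 rows amounted to 22.8% to 72.1% of the sum of the 51 members. With both added, the H4 sum was 1269.7, 1678 and 1667 CPM in general normal, 2196, 2357 and 2184 CPM in general metastatic, 747, 908 and 759 CPM in niche normal and 1489, 1508 and 1619 CPM in niche metastatic libraries. The SD of the H4 sum was then 11.1% of the mean in niche normal instead of 69.7%, and 4.297% instead of 33.3% in general metastatic libraries. It was 4.57% instead of 14.0% in niche metastatic and 15.1% instead of 27.0% in general normal libraries. H2A and H2B were mixed in this respect. With their rows added, the SD of H2A rose from 33.6% to 60.5% of the mean in niche normal libraries. That of H2B rose from 5.21% to 8.59% in general normal and from 10.97% to 14.6% in niche normal libraries. In the remaining groups of both classes it fell.

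On this wider H4 sum the groups did not overlap in any of the 4 comparisons. The niche mean was 0.523 times the general one in normal marrow and 0.685 times in metastatic marrow, and the metastatic mean was 1.46 times the normal one in general and 1.91 times in niche macrophages. Counting TMM, RLE scaling, library totals alone, exclusion of U3 small RNA genes and each left-out library as 16 settings, all gave the same separation in 3 comparisons, and 15 did in the comparison of populations in metastatic marrow, where the exception was library totals alone. The sum over all 58 rows also separated the groups in all 4 comparisons, with the same exception under library totals alone: it was 2646 to 3344 CPM in general normal, 4003 to 5249 in general metastatic, 1905 to 2304.5 in niche normal and 2665 to 3160.1 in niche metastatic libraries. These wider sums were chosen after the values were seen. Hist1h4n was at 302, 446 and 209 CPM in general normal and 25.1, 16.4 and 16.8 CPM in niche normal libraries and was called lower by edgeR (log2 difference -4.04 ± 0.76, SE; adjusted p = 0.00554). As all coding windows of both genes occur in other genes, the split of counts between such copies is uncertain. Hist1h4m was at 529, 685 and 711 CPM in general normal and 648, 395 and 392 CPM in niche normal libraries, with overlap. It was called by edgeR in none of the 5 comparisons (smallest adjusted p = 0.353).

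**Figure D5:**
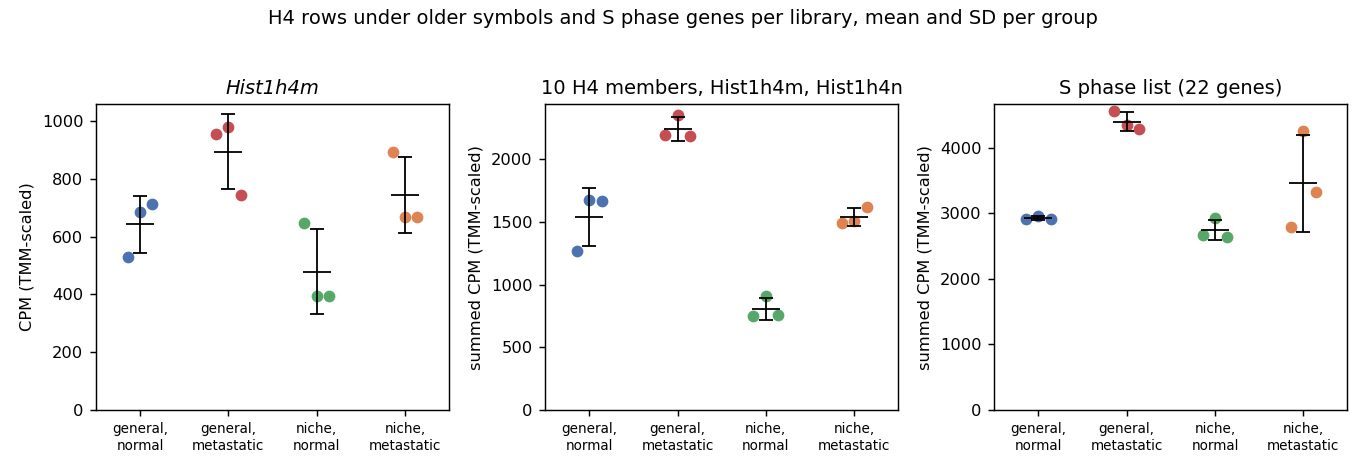
Level of Hist1h4m, summed level of the 10 H4 members with Hist1h4m and Hist1h4n, and summed level of 22 S phase and proliferation genes (all in CPM after TMM scaling), with 1 point per library and the mean and SD of each group. The wider H4 sum is 747 to 908 CPM in niche normal libraries and at least 1269.7 CPM in every other library.

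Most tested members did not pass the test in any comparison. Testing was possible for 49 members; H2ac12 and H2bc18 did not pass edgeR's filter on low counts. Between niche and general macrophages from normal marrow, 1 of 49 members was called, H4c9, against 2.47% of all tested genes (0.97% called lower), and 7 had an unadjusted p under 0.05, against 19% of all genes. DESeq2 called 7 (17.5% of its genes) and limma-voom 2 (1.44% of its genes). Of the 49, 37 had a log2 difference below 0 (43.8% of all genes did), with a median of -0.65 against 0.19 over all genes. All 10 H4 members, 9 of 12 H3, 7 of 9 H2A, 5 of 6 H1 and 6 of 12 H2B members were below 0. Libraries did not overlap for 5 lower members (H1f5, H2ac7, H3c2, H4c6 and H4c9; 8.78% of all genes) and 1 higher member (H2bc13; 10% of all genes).

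In metastatic marrow, edgeR called 0 of 49 members between niche and general macrophages, against 0.831% of all genes; 4 had an unadjusted p under 0.05 (8.6% of all genes), DESeq2 called 3 (5.08% of the genes it gave an adjusted p) and limma-voom 0. Below 0 were 43 of 49 (48.2% of all genes), with a median of -0.81 against 0.04. Those included all 12 H2B and all 6 H1 members. Libraries did not overlap for 9 lower members (8.85% of all genes): H2ac11, H2ac15, H2ac18, H2ac20, H2bc8, H2bc9, H2bc21, H3c7 and H4c14. H2ac18 overlapped once its identical copy H2ac19 was added. None was higher without overlap (8.34% of all genes were).

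For metastatic against normal marrow, edgeR called 0 of 49 members in general macrophages, against 0.0155% of all genes; 4 had an unadjusted p under 0.05 (5.12% of all genes), DESeq2 called 2 (1.55% of its genes) and limma-voom 0. Above 0 were 35 of 49 (49.4% of all genes), with a median of 0.59 against -0.01. They included all 6 H1, 10 of 12 H2B and 8 of 10 H4 members, but only 6 of 12 H3 and 5 of 9 H2A members. Without overlap, 9 were higher (7.27% of all genes): H1f0, H2bc3, H2bc11, H2bc13, H3c1, H3c7, H4c4, H4c8 and H4c14. H3c4 was lower without overlap (5.64% of all genes were).

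In niche macrophages the same contrast gave 0 of 49 calls by edgeR, against 0.00776% of all genes; 11 had an unadjusted p under 0.05 (12.7% of all genes), DESeq2 called 9 (10.6% of its genes) and limma-voom 0. Above 0 were 32 of 49 (43.5% of all genes), with a median of 0.55 against -0.17. H4 stood at 9 of 10 above 0, and H2B at 5 of 12. H3c7, H4c4 and H4c9 were higher without overlap (5.63% of all genes), and H2bc4 and H2bc13 lower (7.11% of all genes). For the difference of the metastasis effect between populations, edgeR called 0 of 49 members (0% of all genes), 6 had an unadjusted p under 0.05 (7.89% of all genes), DESeq2 called 5 (4.55% of its genes) and limma-voom 0. The signs were evenly split, with 25 of 49 below 0 (53.5% of all genes). The 4 comparisons share groups with each other, so their counts are not independent of one another.

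The genes that make, process and load histones gave no call. Among 15 tested genes of histone mRNA synthesis and processing, none was called by edgeR in any comparison, and 3, 0, 0, 2 and 0 had an unadjusted p under 0.05 in the 5 comparisons in the order given above. Slbp, which binds the stem-loop printed above, was at 166 ± 30.2 CPM in general normal, 222 ± 69.2 in general metastatic, 262 ± 33.2 in niche normal and 198 ± 44.3 in niche metastatic libraries (SD, n = 3 each). It was higher in niche than in general normal libraries without overlap, where the H2A members summed to less, and was not called by edgeR (adjusted p = 0.257). Npat, the histone gene activator of S phase, was at 40.8 ± 15.2, 52.6 ± 9.10, 46.1 ± 22.2 and 61.5 ± 14.6 CPM in the same order of groups. Of 14 histone chaperone genes, which deliver histones to DNA, edgeR called none, with 1, 1, 0, 0 and 0 at an unadjusted p under 0.05.

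Of the variant histones, most of which have polyadenylated mRNAs made outside S phase as well, 1 gene was called. H2az1, encoding H2A.Z, was at 613 ± 22.7 CPM in general metastatic and 239 ± 71.1 CPM in niche metastatic libraries (SD, n = 3 each) and was called lower by edgeR (log2 difference -1.36 ± 0.27, SE; adjusted p = 0.0157). It was the 1 call among 8 tested variant genes over the 5 comparisons. H3f3b, encoding H3.3, was at 711 ± 192, 770.0 ± 82.6, 507 ± 103 and 651 ± 109 CPM in general normal, general metastatic, niche normal and niche metastatic libraries, and was not called.

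Cell cycle genes were read beside the histones. A list of 22 genes of S phase and proliferation summed to 2917, 2966 and 2913 CPM in general normal and 4568, 4353 and 4286 CPM in general metastatic libraries. In niche macrophages it summed to 2673, 2925 and 2644 CPM in normal and 2795, 4263 and 3332 CPM in metastatic libraries. General metastatic libraries stood above general normal ones without overlap, and niche libraries overlapped between states. In the same contrast of general macrophages the H2B and H3 members and the wider sums of H4 and of all 58 rows did not overlap, while the sums of the 51 members, H1, H2A and the 10 H4 members did. Mki67, Ccna2 and Top2a, which are also high in G2 and mitosis, made up 44.2% to 62.4% of the list's sum. The other 19 genes summed to 1205, 1278 and 1185 CPM in general normal and 1923, 1944 and 1613 CPM in general metastatic libraries, also without overlap. Between populations in normal marrow they went the other way from most histone members. The 19 genes were higher in niche libraries without overlap, at 1334, 1550.4 and 1425 CPM (log2 ratio of means 0.23). The 3 highest genes were lower there without overlap (-0.38). In metastatic marrow the 19 genes overlapped between populations (0.02), and the 3 highest were lower in niche libraries without overlap (-0.68). The sum of all 22 genes was also lower in niche metastatic than in general metastatic libraries without overlap, as was the sum of the 51 members. Above 0 with metastasis were 20 of the 22 genes in general and 14 of 22 in niche macrophages, and edgeR called 0 of 22 in each of the 5 comparisons, with 3, 3, 4, 4 and 2 at an unadjusted p under 0.05. Within niche metastatic libraries the order was not shared: replicate 2 had the highest S phase sum and the lowest histone sum (1602 CPM). A list of 5 neutrophil precursor genes, which mark cycling myeloid progenitors, summed to 863 to 1029 CPM in general normal and 1128 to 1431 CPM in general metastatic libraries, and to 1033 to 1330.1 and 1127 to 2112 CPM in niche ones. All 5 precursor genes were above 0 with metastasis in general macrophages and none was called by edgeR (0 at an unadjusted p under 0.05). The part of S phase or precursor cells in the histone sums was not tested.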

How the data were processed

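Expected counts for 18467 genes in 12 libraries were deposited by the authors as a single table. Only 73.9% of the entries, and 32.8% of those of histone members, are exactly whole (remainder 0), which fixed the unit. The submitters' processing notes list mm10, Partek, STAR 2.7.3a, DESeq2 1.40.2 and R 4.3.1, with no role or order; the counting method, annotation and strandedness are not given in the sources used here. The columns of niche normal libraries are numbered differently from the sample titles, so they are called A, B and C. The titles call both sorts general; the sorting antigens decided the population.

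Expected counts were rounded and fitted with edgeR 4.0.16 (R 4.3.3): filterByExpr (12882 genes kept), TMM scaling, 4 group means over 12 libraries, quasi-likelihood F-tests, and Benjamini-Hochberg adjustment over all tested genes with a threshold of 0.05. Standard errors come from the F statistic. Replicates are different mice, per the design text, so no block was used. Sums of CPM are described without a test. Floors of 3 counts cover counting error only, since reads carry no molecular identifiers. Positions come from RefSeq (GRCm38.p6) and GENCODE M21, both of the mm10 assembly.

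Members and gene lists were chosen with earlier results of these data known. Named members are the 3 highest of each class by mean CPM, those called, the 3 with the smallest p in each comparison, and H1f0; other members are named where counts of 9 or fewer are listed. Tested on simulated counts with the real dispersions (common biological coefficient of variation 1.30; niche against general, normal marrow; 12733 genes), 13 of 100 genes simulated with a 4-fold change passed, as did 33 of 100 at 16-fold. DESeq2 1.42.0, limma-voom (limma 3.58.1), other scalings and filters, and each library left out were alternatives.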

Additional observations from a re-analysis of the deposited data

Results flagged for a closer look

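H2bc13 and the summed H2B level moved in opposite directions with metastasis in the 2 populations: every general metastatic library was above every general normal one, and every niche metastatic library below every niche normal one. For H2bc13 the fitted difference of the 2 log2 effects was -12.46. With 1 library left out it lay between -18.54 (without niche metastatic replicate 3) and -11.85. It rests on groups with counts of 0 and depends on the prior count. The edgeR test of this difference gave an unadjusted p of 0.00116 and an adjusted p of 0.452, so it did not pass. For the H2B sum the difference of the 2 log2 ratios was -1.35, and this difference was not tested. Without H2bc13 the niche libraries overlapped (211 to 351 CPM in metastatic and 316 to 470.5 CPM in normal marrow).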

How the results depend on the processing

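Under DESeq2, 7 members were called between niche and general macrophages in normal marrow, 3 in metastatic marrow, 2 and 9 with metastasis in general and niche macrophages, and 5 for the difference of these effects, while over all genes it called 2167, 628, 205, 1326 and 558 against 318, 107, 2, 1 and 0 by edgeR; the cause was not tested. In normal marrow limma-voom called 2 and the fit with no filter on low counts 2 (H2bc13 and H4c9 in both; 1.44% and 1.7% of all genes), and the fit of only the comparison's libraries, which tested 40 members, called 0 (1.7% of its genes). Leaving out 1 library gave 0 to 4 calls in normal marrow (0 without general normal replicate 3, with 1.31% of all genes called, and 4 without niche normal library C, with 2.52%), 0 to 0 in metastatic marrow, 0 to 0 and 0 to 2 with metastasis in general and niche macrophages (2 without niche normal library B, with 0.465% of all genes, and 1 without library C, with 0.183%) and 0 to 1 for the difference (1 without library B, with 0.113%). The log2 ratios of the all-member sums ranged from -0.57 to -0.24, -0.91 to -0.45, 0.32 to 0.80 and 0.12 to 0.45 when 1 library was left out. Library totals alone moved the median of all genes by 0.25 between populations in metastatic marrow and by 0.23 between states in niche macrophages, and then 40 members instead of 43 were below 0 and 33 instead of 32 above 0. Deviations of same-numbered libraries correlated between -0.0074 and 0.032, and those of differently numbered ones between -0.033 and 0.014. The highest values were in same-numbered pairs. With 3 libraries in a group, correlations this small cannot show whether same-numbered libraries came from the same mouse. A replicate block, possible for 9 libraries, called 0 members in both comparisons it allows. It called 0.948% of all genes between populations in metastatic marrow and 0.0243% between states in general macrophages. At these dispersions, changes of 4-fold were mostly not recovered in simulated counts. The adjusted p of H4c9 ranged from 8.82e-14 to 0.0726 over its alternatives.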
